A study of Mus musculus with 17 samples.

Results

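The genes described here are 10 genes that are strongly expressed by mouse alveolar macrophages: Marco, Mrc1, Itgax, Chil3, Lpl, Fabp4, Atp6v0d2, Ctsk, Plet1 and Krt79. They were taken by gene symbol from a lung expression table of 31245 genes. All 10 were found and all 10 passed the filter on low counts, among 26946 genes tested. The study asked how perfluorooctanoic acid (PFOA), a long-chain perfluoroalkyl chemical, alters gene expression in the lung, and whether the nuclear receptor PPARα has a part in it. RNA of whole lung from 17 mice was sequenced, in 6 groups of genotype and drinking water. Wild-type (WT) mice were of the bought-in Sv/129 strain, while PPARα null (KO) mice and mice with human PPARα in place of the mouse receptor (KI) came from a separate breeding of null and heterozygous human PPARα animals, so that PPARα genotype and colony cannot be told apart between WT and the others. For 14 weeks the mice drank sucrose water, either alone (vehicle) or with 6.2 μg/mL of PFOA. All groups had been put on a custom American-style diet at 6 weeks of age. Each group held 3 mice with 1 library each, except WT vehicle, which held 2.

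Alveolar macrophages live in the air spaces, where they take up inhaled particles, microbes and used surfactant. They carry scavenger and lectin receptors on the surface, acid lysosomes that break down what was taken up, and a machinery that binds, hydrolyses and exports surfactant lipid. The cytokine GM-CSF from the alveolar epithelium and the nuclear receptor PPARγ maintain this lipid-handling program, and the transcription factor PU.1 is needed for macrophage identity as a whole. None of the 10 genes belongs to these cells alone. Lpl and Fabp4 are also adipocyte and endothelial genes, Mrc1 and Itgax are found on other macrophages and dendritic cells, and Plet1, Krt79 and Ctsk are also made by epithelial or stromal cells.

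Levels are given as CPM, which are counts scaled to library size with TMM factors, and groups are compared with edgeR's quasi-likelihood test on the authors' estimated counts, fitted over all 17 libraries. The threshold for calling a gene altered was an adjusted p below 0.2 together with a fold change above 2. The libraries held 4116118 to 9237356 counts (median 7524757), so that 3 counts corresponded to 0.319 to 0.691 CPM, a floor that covers counting error only. Each member was counted in every library, from 18 counts of Marco in the shallowest library to 3201 counts of Lpl. Ppara, the targeted gene, was at 4.39 to 7.21 CPM in WT, 8.82 to 11.7 CPM in the libraries labelled KO and 9.08 to 20.4 CPM in those labelled KI, so that its transcript was not lower in KO. The names KO and KI therefore follow the labels only. All KO libraries were from females, while WT and KI held both sexes, so that sex is in part confounded with genotype. Of the WT vehicle libraries, 107 was from a female and 122 from a male. All KO PFOA libraries carried the same second index, which no KO vehicle library carried, and index and exposure in KO cannot be told apart.

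Of the vehicle libraries, WT library 122 and KO library 137 stood apart. Protein-coding genes took 65.3% and 61.3% of their counts, against 74.4% to 80.4% in the other 15. Their summed levels were under those of all the other 15 libraries for 5 of the 10 cell type lists examined: 18 other alveolar macrophage genes, 6 alveolar type 2 genes, 10 endothelial genes, 9 fibroblast genes and 7 monocyte genes. The 18 macrophage genes, for example, summed to 432 CPM in library 122 and 280.1 CPM in library 137, and to 462 to 649 CPM elsewhere. Library 122 also held 24859 CPM of 5 club cell genes, while the highest of the other 15 held 11432 CPM. Both are vehicle libraries, and the values without them are given below where they move a result of PFOA against vehicle.

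The label of the gene set was checked against other genes of the same cells. Siglecf, a surface lectin that defines alveolar macrophages in mice, had counts in all 17 libraries, at 0.328 to 6.93 CPM. The ribonuclease genes Ear1 and Ear2 were at 0.461 to 7.13 and 4.38 to 23.4 CPM. All 18 genes of the list had a count above 0 in every library, but 3 of them were under the floor of 3 counts in 1 library each, Siglecf with 2 counts in library 122, and Ear1 with 2 counts and Fabp1 with 1 count in library 137. In tissue RNA, fewer macrophages and less RNA of these genes per macrophage cannot be told apart, for any of the values that follow.

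Levels per kilobase were taken over the merged exons of all annotated transcripts, which may be longer than the expressed transcript. For Fabp4 this length was 4489 bases, the whole span of the gene, so the order depends on it. By this measure Chil3 was highest of the 10 genes, at 62.0 ± 30.8 CPM per kb (SD, n = 17). Lpl followed at 16.6 ± 7.11 and Mrc1 at 10.7 ± 2.93. Plet1 (10.01 ± 1.83), Atp6v0d2 (7.71 ± 2.74), Fabp4 (5.57 ± 4.96), Marco (5.55 ± 2.15), Itgax (4.96 ± 1.19) and Ctsk (4.41 ± 0.687) came next, with neighbours in this order within each other's spread, and Krt79 was lowest at 2.32 ± 0.821 CPM per kb. The genes also differed in how much they varied between lungs. The highest library held 12.1 times the lowest for Chil3 and 11.8 times for Fabp4, but 1.86 times for Ctsk and 2.19 times for Plet1.

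Across the 3 genotypes together, PFOA lungs held more of the chitinase-like protein gene Chil3 (1.93-fold) and of the lipoprotein lipase gene Lpl (1.78-fold) than vehicle lungs. The mannose receptor gene Mrc1 (1.35-fold), the integrin gene Itgax (1.26-fold) and the proton pump gene Atp6v0d2 (1.40-fold) were also higher. These 5 genes had an unadjusted p under 0.05 in edgeR's additive fit of genotype and exposure, all 5 in the direction of more RNA on PFOA, where 8.27% of all genes had such a p and 3.8% had it in this direction. None of the 10 was altered at the adjusted threshold, for which the share over all genes was 0%, and their edgeR adjusted p-values ranged from 0.288 to 0.857. DESeq2 altered 0 members as well, and gave 5 an unadjusted p under 0.05. The median log2 fold change was 0.43 over the 10 members and -0.01 over all genes tested. Lists of other lung cells were also shifted, with medians of 0.25 for alveolar type 2, 0.23 for endothelial and 0.19 for fibroblast genes. The interstitial macrophage list had 0.32 and the dendritic cell list 0.21. The monocyte (0.49), neutrophil (1.02) and adipocyte (1.06) medians were above that of the members. The club cell list went the other way (-0.42). The member median was 0.23 when vehicle libraries 122 and 137 were left out. Without the vehicle libraries 122 and 137, an alternative chosen after the values were seen, 2 members kept an unadjusted p under 0.05, and these were Chil3 and Lpl.

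**Figure D1:**
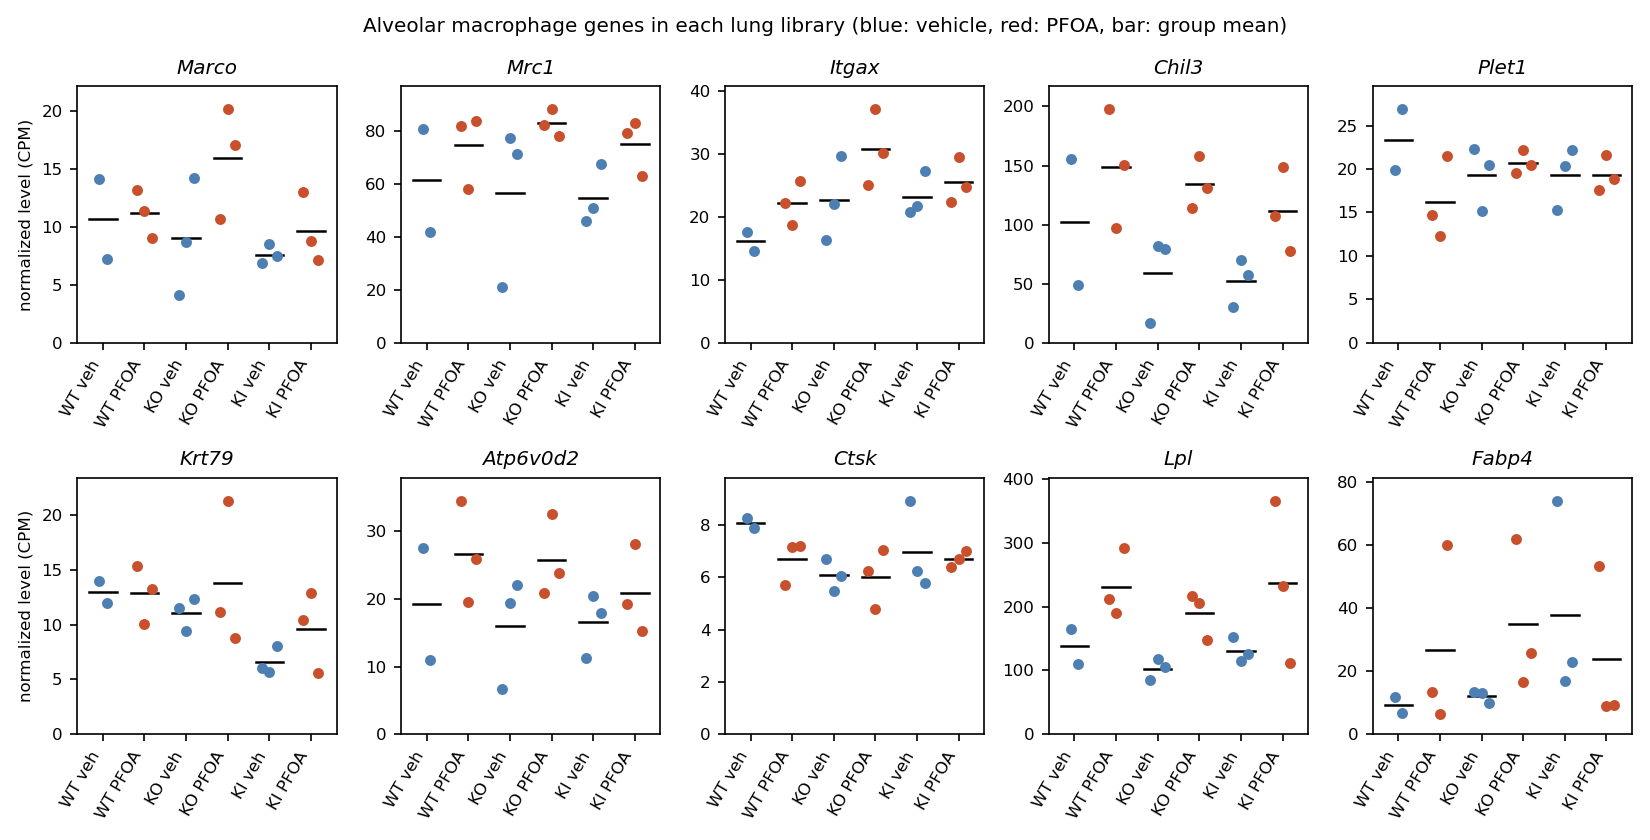
Normalized level in CPM (vertical axes, from 0) of each of the 10 genes in the 17 lung libraries. Each point is 1 mouse, blue for vehicle (veh) and red for PFOA, the black bars are group means, and a reader should see for Chil3 that all PFOA points lie above all vehicle points in KO and in KI, but not in WT.

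Chil3 (ENSMUSG00000040809, chromosome 3, 106147554 to 106167564, minus strand, mm10) encodes Ym1, a secreted chitinase-like lectin without enzyme activity that mouse alveolar macrophages release in large amounts and that is raised in type 2 immune responses. Its level in WT was 156 and 49.1 CPM in the vehicle libraries 107 and 122, and 198, 96.9 and 151 CPM in the PFOA libraries 50, 56 and 65. The WT groups overlapped, since vehicle library 107 lay above 2 of the 3 PFOA libraries. In KO, the level was 16.4, 81.6 and 79.0 CPM on vehicle (libraries 137, 145 and 149) and 114, 158 and 131 CPM on PFOA (libraries 52, 154 and 155). In KI, it was 30.6, 70.0 and 57.4 CPM on vehicle (libraries 102, 116 and 135) and 107, 149 and 77.4 CPM on PFOA (libraries 57, 80 and 139). Neither the KO nor the KI groups overlapped, with every PFOA lung above every vehicle lung.

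The log2 fold change of Chil3 on PFOA was 0.53 ± 0.52 (SE) in WT, 1.17 ± 0.46 in KO and, in KI, 1.08 ± 0.46. These had edgeR adjusted p-values of 0.836, 0.483 and 1. On the log2 scale the WT effect was exceeded by 0.64 ± 0.68 in KO and by 0.54 ± 0.68 in KI, less than the errors of these differences. Over the genotypes the log2 fold change was 0.95 ± 0.27 (edgeR adjusted p = 0.436). It remained positive with an unadjusted p under 0.05 in all 32 alternatives, between 0.55 without libraries 122, 137 and 102 and 1.21 without library 107. Without KI PFOA library 139, the fold change passed 2 and the edgeR adjusted p was 0.193, so that Chil3 was altered in that alternative, as were 0.131% of all genes. The WT value, in contrast, rested on library 122, without which it was -0.06. In KO it was 0.74 ± 0.40 without library 137, and in KI 0.80 ± 0.51 without library 102, neither with an unadjusted p under 0.05.

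Chil3 has a near relative, Chil4, and 10.8% of the 80-base windows of its transcript sequence also occurred in another gene, mostly Chil4. Chil4 itself was given 18 counts over all 17 libraries, 8 of them in library 137, so few reads were assigned to it. Of 3 other chitinase family genes tested, 0 had an unadjusted p under 0.05 on PFOA over the genotypes (8.27% of all genes). Chil1, which encodes the chitinase-like protein made by macrophages and epithelium, instead differed by genotype. The log2 difference between KO and WT was 2.62 ± 0.40 (edgeR adjusted p = 0.00117). Its group means on vehicle and PFOA were 20.5 and 22.6 CPM in WT, 80.1 and 216 CPM in KO, and 130 and 134 CPM in KI. The difference from WT was therefore not particular to KO. Chia1, an acid chitinase gene, was lower in KI than in WT by -0.98 ± 0.20 (edgeR adjusted p = 0.0178), a fold change under 2.

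The surface receptor genes were Marco, Mrc1 and Itgax. Marco (ENSMUSG00000026390, chromosome 1, 120474538 to 120505024, minus strand) encodes a class A scavenger receptor for bacteria and unopsonized particles. It was at 14.1 and 7.21 CPM in the WT vehicle libraries and at 13.2, 11.4 and 8.995 CPM in the WT PFOA libraries. In KO, it was at 4.15, 8.72 and 14.2 CPM on vehicle and at 10.6, 20.1 and 17.05 CPM on PFOA. In KI, it was at 6.84, 8.53 and 7.45 CPM on vehicle and at 13.02, 8.74 and 7.13 CPM on PFOA. PFOA and vehicle lungs overlapped in every genotype. The log2 fold change was 0.06 ± 0.39 in WT, 0.78 ± 0.35 in KO (edgeR adjusted p = 0.495) and 0.34 ± 0.36 in KI. Without library 137 the KO value was 0.47 ± 0.33, and without PFOA library 154 it was 0.57 ± 0.39. Over the genotypes it was 0.42 ± 0.21 (edgeR adjusted p = 0.625), and 0.23 ± 0.18 without libraries 122 and 137.

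Mrc1 (ENSMUSG00000026712, chromosome 2, 14229392 to 14332057, plus strand) encodes the mannose receptor CD206, an endocytic lectin. It was at 81.0 and 41.8 CPM in the WT vehicle lungs and at 82.0, 58.2 and 83.8 CPM in the WT PFOA lungs. In KO, vehicle lungs held 20.96, 77.4 and 71.4 CPM and PFOA lungs 82.5, 88.3 and 78.2 CPM. In KI, vehicle lungs held 46.2, 50.8 and 67.5 CPM and PFOA lungs 79.5, 83.0 and 63.2 CPM. The KO groups did not overlap, by a margin of under 1 CPM between vehicle library 145 and PFOA library 155, while the WT and KI groups did. Over the genotypes the log2 fold change was 0.43 ± 0.18 (edgeR adjusted p = 0.552), and 0.22 ± 0.11 without libraries 122 and 137.

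Itgax (ENSMUSG00000030789, chromosome 7, 128129547 to 128150657, plus strand) encodes CD11c, the alpha chain of a beta2 integrin that alveolar macrophages share with dendritic cells. It was at 17.6 and 14.6 CPM in WT vehicle lungs and at 22.2, 18.7 and 25.7 CPM in WT PFOA lungs, which did not overlap. In KO, vehicle lungs held 16.4, 22.1 and 29.6 CPM and PFOA lungs 25.1, 37.1 and 30.05 CPM. In KI, vehicle lungs held 20.7, 21.6 and 27.3 CPM and PFOA lungs 22.4, 29.4 and 24.7 CPM. The KO and KI groups overlapped. The log2 fold change over the genotypes was 0.33 ± 0.12 (edgeR adjusted p = 0.507), and its unadjusted p was under 0.05 in 30 of 32 alternatives. Both exceptions left out library 122 together with library 137, with log2 fold changes of 0.22 and 0.20.

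Itgax shares 4.57% of its 80-base windows with another gene, mostly Itgad, which was at most at 2.4 CPM. Of the 4 other beta2 integrin genes tested, 3 had an unadjusted p under 0.05 with more RNA on PFOA (3.8% of all genes). They were Itgb2, the common beta chain, with a log2 fold change of 0.73 ± 0.17 (edgeR adjusted p = 0.385), Itgal, the lymphocyte alpha chain LFA-1, with 0.66 ± 0.19 (adjusted p = 0.436), and Itgam, the alpha chain CD11b of monocytes and neutrophils, with 0.42 ± 0.18 (adjusted p = 0.573). Among 8 other scavenger and pattern receptors, only Scarb1 had such a p, at 0.43 ± 0.14 (edgeR adjusted p = 0.468). Markers of blood-borne leukocytes lay higher on PFOA in the same fit. Of these, 5 of 7 neutrophil and 4 of 7 monocyte genes had an unadjusted p under 0.05 (3.8% of all genes in this direction). Among them were S100a9 at 1.68 ± 0.37 (edgeR adjusted p = 0.317) and Plac8 at 1.25 ± 0.27 (adjusted p = 0.317). The part of blood-borne leukocytes in the Itgax result was not tested.

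The lipid genes were Lpl and Fabp4. Lpl (ENSMUSG00000015568, chromosome 8, 68880491 to 68907448, plus strand) encodes lipoprotein lipase, the secreted enzyme that splits triglycerides of lipoproteins at the capillary wall and that macrophages and adipocytes make. It was at 165 and 111 CPM in WT vehicle lungs and at 212, 190.2 and 291 CPM in WT PFOA lungs. In KO, vehicle lungs held 85.2, 118 and 105 CPM and PFOA lungs 216, 205 and 148 CPM. In KI, vehicle lungs held 152, 115 and 126 CPM and PFOA lungs 365, 231 and 112 CPM. The WT and the KO groups did not overlap, while in KI the PFOA library 139 lay below all 3 vehicle libraries.

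The log2 fold change of Lpl was 0.75 ± 0.34 in WT (edgeR adjusted p = 0.65), 0.88 ± 0.30 in KO (adjusted p = 0.474) and 0.85 ± 0.30 in KI (adjusted p = 1). Without vehicle library 122 the WT value was 0.49 ± 0.43, and without PFOA library 65, one of the 4 rich in adipocyte genes described below, it was 0.55 ± 0.36. Without PFOA library 57, another of the 4, the KI value was 0.39 ± 0.27, and none of these 3 values had an unadjusted p under 0.05. The KO value kept such a p with each library left out in turn, between 0.77 without library 137 and 1.03 without library 155. The KO and KI effects exceeded the WT effect by 0.14 ± 0.45 and 0.10 ± 0.44, less than the errors of the differences. Over the genotypes it was 0.83 ± 0.17 (edgeR adjusted p = 0.288). The DESeq2 test gave 0.81 ± 0.17 with an adjusted p of 0.0112, and edgeR without KI PFOA library 139 gave 0.94 ± 0.14 with an adjusted p of 0.0143, both at a fold change under 2, so that Lpl was not altered by the threshold used. In all 32 alternatives the value was positive with an unadjusted p under 0.05, between 0.63 and 0.94. The lowest value came without all 4 libraries of over 100 CPM of adipocyte genes, a split made after the values were seen.

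Genes that act on Lpl or on lipid in the lysosome were examined as a group. Of 14 genes tested, 7 had an unadjusted p under 0.05 on PFOA over the genotypes (8.27% of all genes). All 7 had more RNA on PFOA (3.8% of all genes in this direction) and 0 were altered. The median log2 fold change of the 14 was 0.22. Abca1, which exports cholesterol to lipid-poor apolipoprotein, had 0.73 ± 0.15 (edgeR adjusted p = 0.288), and Abcg1, the cholesterol exporter to high-density lipoprotein that is abundant in alveolar macrophages, had 0.65 ± 0.20 (adjusted p = 0.465). Gpihbp1, which anchors lipoprotein lipase on capillary endothelium, had 0.37 ± 0.15 (edgeR adjusted p = 0.537). Apoc2, the activator of the enzyme, was among the 7. It was at 0 in all WT and KI vehicle libraries and at most at 0.748 CPM in the others. No fold change is therefore given for it.

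**Figure D2:**
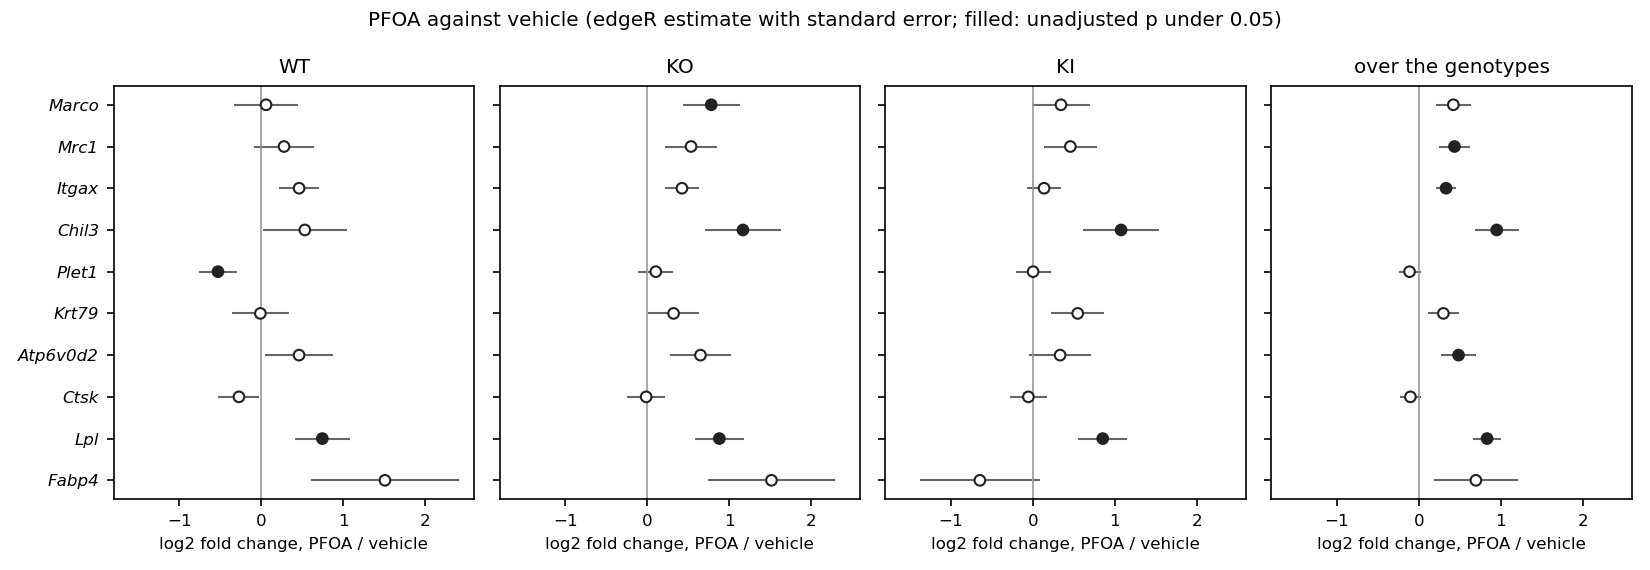
Log2 fold change of PFOA against vehicle (horizontal axes, edgeR estimate with its standard error as bars) for the 10 genes in WT, KO, KI and over the genotypes. Filled points have an unadjusted p under 0.05 and none passes the adjusted threshold, and Lpl is filled in all 4 panels, at 0.75, 0.88, 0.85 and 0.83.

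Fabp4 (ENSMUSG00000062515, chromosome 3, 10204088 to 10208576, minus strand) encodes a cytosolic fatty acid binding protein of adipocytes, capillary endothelium and macrophages. It was at 11.9 and 6.72 CPM in WT vehicle lungs and at 13.6, 6.29 and 60.01 CPM in WT PFOA lungs. In KO, vehicle lungs held 13.4, 13.2 and 10.05 CPM and PFOA lungs 62.1, 16.7 and 25.9 CPM. In KI, vehicle lungs held 74.0, 16.9 and 22.9 CPM and PFOA lungs 53.3, 8.99 and 9.36 CPM. A single library stood high in each of 4 groups: WT PFOA 65, KO PFOA 52, KI vehicle 102 and KI PFOA 57. These 4 libraries lay between 53.3 and 74.0 CPM and the other 13 between 6.29 and 25.9 CPM.

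The same 4 libraries held the most adipocyte RNA. The summed level of 8 adipocyte genes was 139 to 245 CPM in them, and 18.7 to 77.3 CPM in the other 13. The adipokine gene Adipoq reached 11.5 CPM and was at 0 in 3 libraries, and the lipid droplet gene Plin1 reached 40.3 CPM and was at 0 in 1 library. Over all 17 libraries the genes whose pattern was most like that of Fabp4 were Plin1 (Pearson's r = 0.95, Spearman's rho = 0.95), Pck1 (r = 0.93, rho = 0.89) and Car3 (r = 0.90, rho = 0.92), on the scale of log2(CPM + 0.5). Because the libraries fall into a group of 4 and a group of 13, the relation with the summed adipocyte level is given within the 13 only, where r was 0.45 for Fabp4, and -0.51 for Chil3 and Marco. In the 13 libraries the lowest adipocyte sum was 18.7 CPM, and Plin4 alone was at 18.3 CPM or more in every library. Over 17 libraries Plin4 had a median of 33.1 CPM, and the next highest of the 8 genes, Cfd, had 3.06 CPM. The r values within the 13 therefore rest largely on Plin4. With the 18 other alveolar macrophage genes, Fabp4 had r = 0.08 over 17 libraries.

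The log2 fold change of Fabp4 on PFOA was 1.51 ± 0.91 in WT, 1.52 ± 0.78 in KO and -0.65 ± 0.73 in KI, and 0.70 ± 0.51 over the genotypes (edgeR adjusted p = 0.741). Without the 4 libraries, these values became 0.10 ± 0.37 in WT, 0.80 ± 0.32 in KO and -1.11 ± 0.36 in KI, and 0.01 ± 0.28 over the genotypes. With the adipocyte level as a covariate instead, they were 0.62 ± 0.39, 0.38 ± 0.34, 0.09 ± 0.33 and 0.32 ± 0.19, so that the value in each genotype depended on how the adipocyte genes were treated. Both alternatives were chosen after the values were seen. The difference between the KI and the WT effect was -2.16 ± 1.16 (edgeR adjusted p = 0.999). With the second index as a covariate, Fabp4 was higher in KO than in WT by 2.17 ± 0.56 (adjusted p = 0.184) and in KI than in WT by 2.17 ± 0.45 (adjusted p = 0.033), in fits that altered 0.716% and 1.67% of all genes, and apart from the looser unadjusted threshold no other alternative altered a member between genotypes. Its near relative Fabp5, the epidermal form that macrophages also make, had 0.43 ± 0.21 on PFOA over the genotypes (edgeR adjusted p = 0.61). The part of adipose tissue in the Fabp4 values was not tested.

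**Figure D3:**
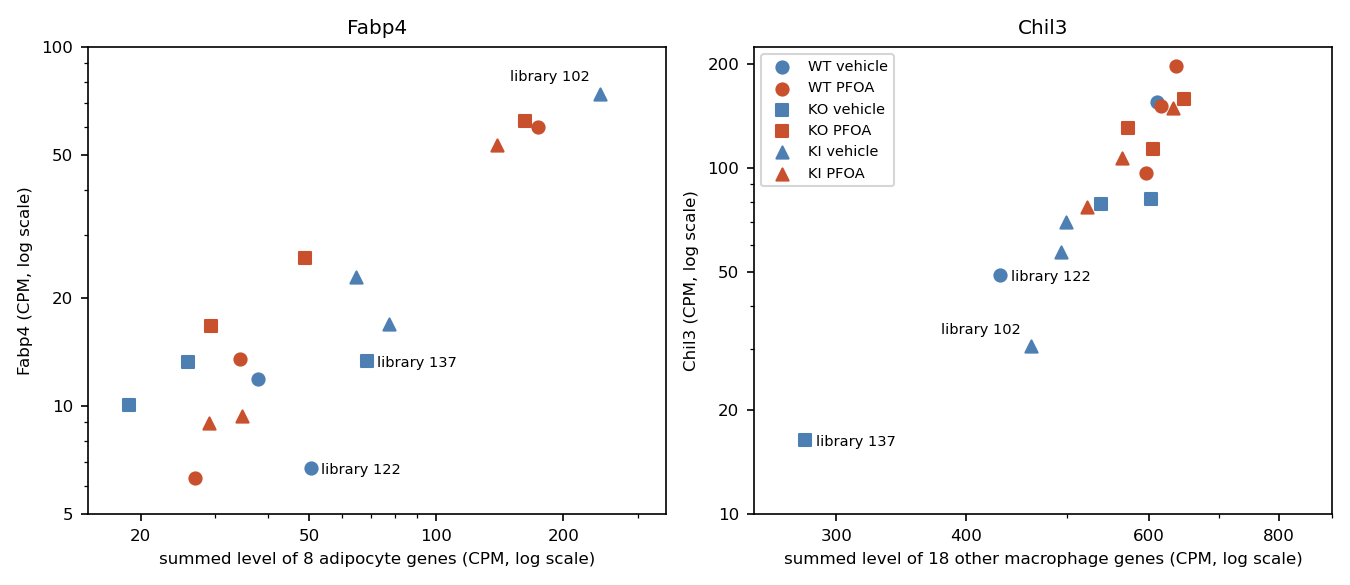
Level of Fabp4 against the summed level of 8 adipocyte genes (left) and level of Chil3 against the summed level of 18 other alveolar macrophage genes (right), all in CPM on log scales, with 1 point per library, blue for vehicle and red for PFOA, and circles, squares and triangles for WT, KO and KI. On the left 4 libraries of 3 genotypes lie apart at 139 to 245 CPM of adipocyte genes, and on the right the vehicle libraries 137, 122 and 102 have the lowest macrophage sums and the lowest Chil3 levels.

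The lysosomal genes were Atp6v0d2 and Ctsk. Atp6v0d2 (ENSMUSG00000028238, chromosome 4, 19876841 to 19922605, minus strand) encodes the d2 subunit of the vacuolar proton pump, a form found in macrophages and osteoclasts. It was at 27.4 and 10.97 CPM in WT vehicle lungs and at 34.5, 19.6 and 25.8 CPM in WT PFOA lungs. In KO, vehicle lungs held 6.68, 19.4 and 21.97 CPM and PFOA lungs 20.9, 32.5 and 23.8 CPM. In KI, vehicle lungs held 11.3, 20.5 and 17.9 CPM and PFOA lungs 19.3, 28.1 and 15.2 CPM. The groups overlapped in every genotype. Over the genotypes the log2 fold change was 0.48 ± 0.21 (edgeR adjusted p = 0.574), and 0.24 ± 0.16 without libraries 122 and 137.

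The widely expressed partner subunit Atp6v0d1 had a log2 fold change of 0.03 ± 0.13 in the same comparison. There, 0 of 16 other subunits and accessory proteins of the pump had an unadjusted p under 0.05 (8.27% of all genes). Ctsk (ENSMUSG00000028111, chromosome 3, 95499256 to 95509362, plus strand) encodes cathepsin K, a collagen-degrading cysteine protease. It varied least of the 10 genes, between 4.79 CPM in KO PFOA library 154 and 8.91 CPM in KI vehicle library 102. The WT vehicle lungs (8.26 and 7.86 CPM) lay above the WT PFOA lungs (5.70, 7.16 and 7.20 CPM), and the KO and KI groups overlapped. Its log2 fold change over the genotypes was -0.10 ± 0.13 (edgeR adjusted p = 0.857). Of 11 other cathepsin and cystatin genes, 5 had an unadjusted p under 0.05 (8.27% of all genes). All 5 had more RNA on PFOA (3.8% in this direction). Among the 5 were Ctsd, the main aspartic protease of lysosomes, at 0.40 ± 0.14 (edgeR adjusted p = 0.485). Another was Ctss, the protease that prepares antigens for presentation, at 0.57 ± 0.24 (adjusted p = 0.548).

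Plet1 and Krt79 have no settled role in these cells but mark them in mouse lung. Plet1 (ENSMUSG00000032068, chromosome 9, 50494525 to 50505482, plus strand) encodes a glycolipid-anchored surface protein of progenitor epithelium. It was at 19.8 and 26.9 CPM in WT vehicle lungs, at 14.7, 12.3 and 21.5 CPM in WT PFOA lungs, and between 15.2 and 22.3 CPM in all 12 KO and KI lungs. The WT groups overlapped. The WT log2 fold change was -0.53 ± 0.24 (edgeR adjusted p = 0.645), and -0.29 ± 0.29 without library 122, which held the highest level and also the most club cell RNA. The sources used here do not state how strand was used in counting, so reads of Plet1 and of the overlapping antisense gene Plet1os cannot be told apart.

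Krt79 (ENSMUSG00000061397, chromosome 15, 101929332 to 101940324, minus strand) encodes a type II keratin. It was at 14.0 and 11.96 CPM in WT vehicle lungs and at 15.3, 10.1 and 13.2 CPM in WT PFOA lungs. In KO, vehicle lungs held 11.5, 9.43 and 12.3 CPM and PFOA lungs 11.2, 21.3 and 8.82 CPM. In KI, vehicle lungs held 6.05, 5.73 and 8.01 CPM and PFOA lungs 10.4, 12.8 and 5.59 CPM. PFOA and vehicle lungs overlapped in every genotype, while all KI vehicle lungs lay below all WT and KO lungs. Over the genotypes the log2 fold change on PFOA was 0.30 ± 0.18 (edgeR adjusted p = 0.691).

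Taken within a genotype, 2 of 10 members had an unadjusted p under 0.05 in WT (7.35% of all genes), 1 with more RNA on PFOA (Lpl) and 1 with less (Plet1). In KO there were 3 (9.79% of all genes), Chil3, Lpl and Marco, all with more RNA on PFOA (3.74% of all genes in this direction). In KI there were 2 (2.59% of all genes), Chil3 and Lpl, again both with more (1.47% in this direction). These counts moved both ways with single libraries. The WT count was 1 (Plet1) without PFOA library 65 and 3 without PFOA library 56. The KO count was 1 (Lpl) without library 137 and 5 without library 149. The KI count was 1 (Lpl) without library 102 and 3 without library 139. Leaving out either WT vehicle library leaves 1 vehicle mouse. The WT log2 fold change of Lpl was then 0.49 without library 122 and 1.06 without library 107, and that of Plet1 was -0.29 and -0.73. Without both 122 and 137, the counts were 2 in KO (Chil3 and Lpl) and 3 in KI (Chil3, Lpl and Mrc1). No member was altered in any genotype, as for all genes (0% in each), and DESeq2 altered 0 members with 2, 3 and 1 at an unadjusted p under 0.05. Every PFOA lung lay above every vehicle lung for 2 members in WT (11.6% of all genes), 4 in KO (6.82%) and 1 in KI (4.45%). Both Chil3 and Lpl were separated in this way in 2 genotypes (2.19% of all genes). When the PFOA effect in KO or KI was compared with that in WT, 0 members were altered (0% of all genes) and 0 had an unadjusted p under 0.05 (7.46% and 4.58% of all genes), also with DESeq2. These differences share the WT libraries.

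**Figure D4:**
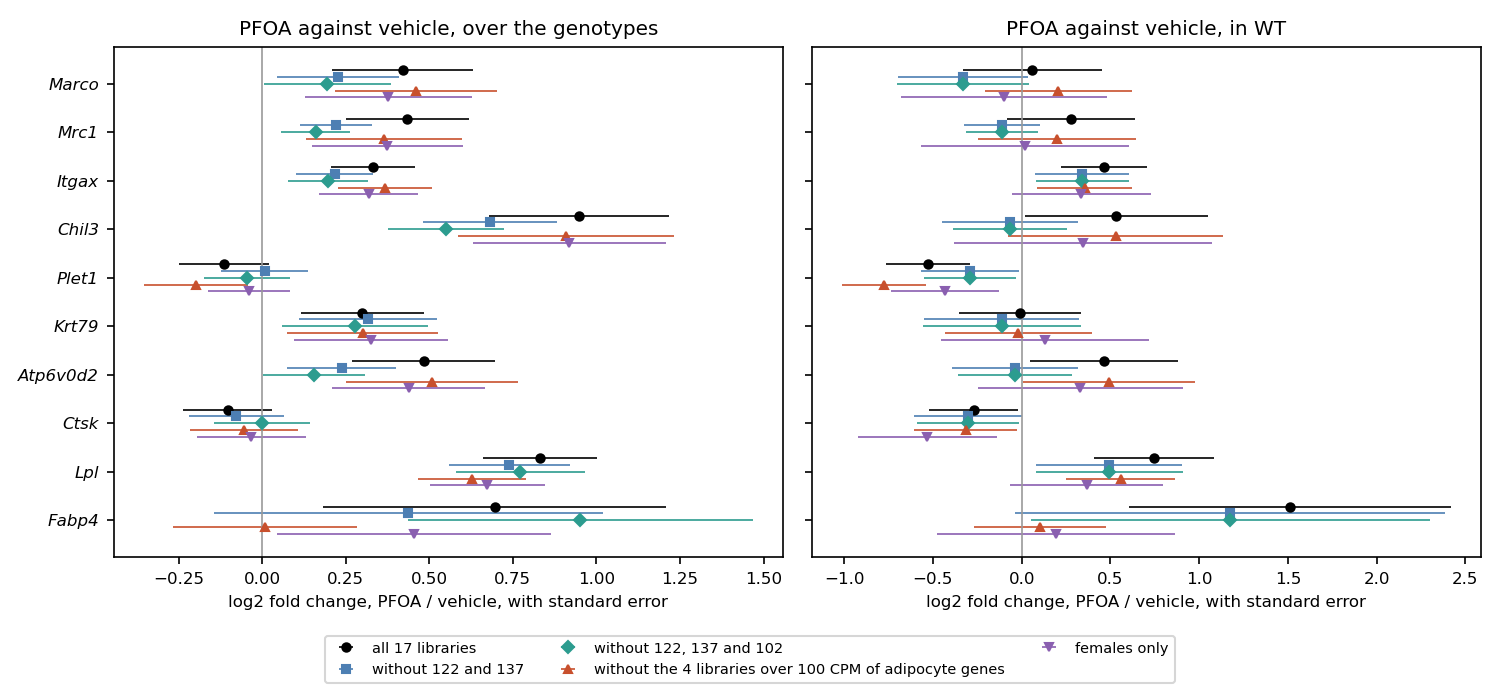
Log2 fold change of PFOA against vehicle (horizontal axes, with standard errors) over the genotypes and in WT, for the 10 genes, with all 17 libraries and after leaving out libraries. The values of Marco, Mrc1, Chil3 and Atp6v0d2 in WT are positive with all libraries and negative without libraries 122 and 137, at -0.33, -0.11, -0.06 and -0.04, while Lpl stays positive.

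The genotypes were compared over both exposures, to ask whether the level of the genes depended on PPARα. Between KO and WT, 0 members were altered (2.9% of all genes) and 1 had an unadjusted p under 0.05 (13.9%). This was Itgax, higher in KO by 0.49 ± 0.16 on the log2 scale (edgeR adjusted p = 0.145), a fold change of 1.40. Between KI and WT, 0 were altered (1.61% of all genes) and 2 had an unadjusted p under 0.05 (10.4%), namely Itgax, higher in KI by 0.36 ± 0.16 (edgeR adjusted p = 0.427), and Krt79, lower in KI by -0.70 ± 0.23 (adjusted p = 0.22). Between KI and KO, 0 were altered (0.00742% of all genes) and 1 had an unadjusted p under 0.05 (4.74%), again Krt79 at -0.64 ± 0.22. DESeq2 altered 0 members in the 3 comparisons, with 1, 2 and 1 members at an unadjusted p under 0.05. Chil3 was at -0.46 ± 0.34 in KO and -0.69 ± 0.34 in KI against WT (edgeR adjusted p = 0.59 and 0.506). The KO and KI comparisons share the WT libraries.

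The 10 genes did not vary as a unit between lungs. Over the 17 libraries, 6 of 45 pairs had a Pearson's r over 0.7 on the scale of log2(CPM + 0.5), and these were the 6 pairs among Marco, Chil3, Mrc1 and Atp6v0d2, with r from 0.76 to 0.95 and Spearman's rho from 0.67 to 0.92. The median over all 45 pairs was 0.20. Within groups, after subtraction of the group means, the 6 pairs had r from 0.72 to 0.99, and without libraries 122 and 137 they had 0.57 to 0.92. These values describe lungs that share depth, tissue composition and RNA quality, and no p is given. Library 137 was lowest of the 17 for all 4 genes. Itgax (0.50 to 0.64) and Lpl (0.47 to 0.67) came next in their r with the 4 genes, Krt79 had 0.31 to 0.49, and Fabp4 (0.00 to 0.19), Plet1 (-0.17 to -0.15) and Ctsk (-0.41 to -0.29) did not follow them.

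**Figure D5:**
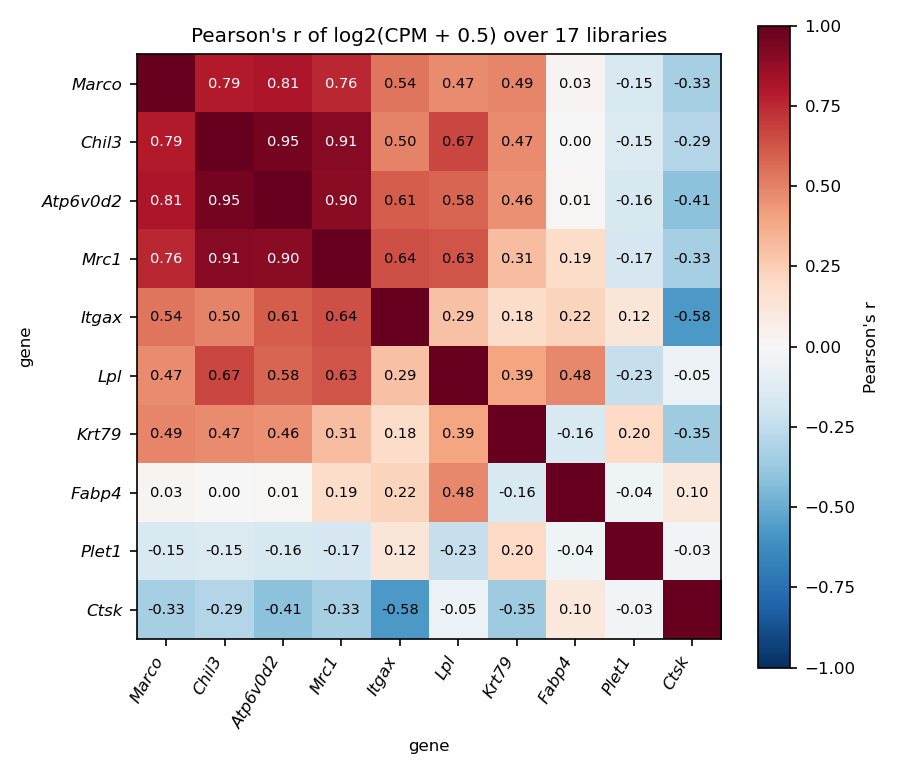
Pearson's r between the levels of the 10 genes over 17 libraries, on the scale of log2(CPM + 0.5), with red for positive and blue for negative values. Marco, Chil3, Atp6v0d2 and Mrc1 form a block of r from 0.76 to 0.95 at the top left, and Plet1 and Ctsk have values of 0.20 or less with every other gene.

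The summed level of the 18 other alveolar macrophage genes followed the same 4 genes. Over 17 libraries r was 0.96 for Mrc1, 0.93 for Chil3, 0.92 for Atp6v0d2 and 0.75 for Marco. Without libraries 122 and 137 it was 0.83, 0.91, 0.83 and 0.57. The sum leans on its most abundant genes, Cd9, Car4 and Mertk (medians 114, 95.3 and 78.9 CPM, against 4.61 CPM for Siglecf). In the same order, r with the 6 alveolar type 2 genes was 0.85, 0.78, 0.83 and 0.76. Without both libraries it was 0.39, 0.48, 0.51 and 0.61. With the endothelial and fibroblast genes Mrc1 had 0.89 and 0.86 over 17 libraries, and 0.49 and 0.37 without both. With the 18 macrophage genes r was 0.64 for Lpl and 0.54 for Itgax. For Lpl it was higher with 10 interstitial macrophage genes (0.82) and with the 7 monocyte genes (0.81). The monocyte sum is mostly Ace (median 1011 CPM, against 37.8 CPM for Ccr2). The interstitial sum leans on Apoe (median 371 CPM) and Lyve1 (190.5 CPM), so these 2 values describe few genes. Without both libraries, r with the 18 genes became 0.18 for Itgax, and for Krt79 it went from 0.30 to 0.84. Plet1 and Ctsk had negative values with the 18 genes, at -0.32 and -0.27 over 17 libraries. Without both libraries these were -0.005 and -0.34. With the 5 club cell genes Plet1 had 0.47, and 0.19 without both. On PFOA, 4 of these 18 genes had an unadjusted p under 0.05 over the genotypes (8.27% of all genes). All 4 had more RNA on PFOA (3.8% in this direction) and 0 were altered. The median log2 fold change of the 18 was 0.32. Lgals3, the gene of galectin-3, had 0.34 ± 0.12 (edgeR adjusted p = 0.503) and Cd68, a lysosomal membrane protein gene, had 0.47 ± 0.21 (adjusted p = 0.573).

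Likeness to each member was ranked among 15506 genes that averaged 20 counts or more per library. Chil3 and Atp6v0d2 were nearest to each other (r = 0.95), and Atp6v0d2 was next to Tgfbr1, a receptor chain for TGF-β, which sustains alveolar macrophages (r = 0.94). Marco was nearest to Tmem164 (r = 0.87) and had Lgals3 among its 3 nearest (r = 0.83). Mrc1 was nearest to the actin regulator gene Cap1 (r = 0.95) and to Ifngr1, an interferon-γ receptor chain (r = 0.95), and without libraries 122 and 137 these were 0.78 and 0.76. Itgax was nearest to Rassf4 (r = 0.91) and to Lilrb4a, an inhibitory receptor gene of myeloid cells (r = 0.87). Lpl was nearest to Pnpla2, which encodes the triglyceride lipase of lipid droplets (r = 0.90, and 0.92 without both libraries). Plet1, Krt79 and Ctsk had their nearest genes in Nfil3 (r = 0.83), Eid2b (r = 0.82) and Tst (r = 0.77).

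Because Marco, Chil3 and Mrc1 moved together, the 250 bases upstream of their transcription starts are shown, from RefSeq on build GRCm38.p6. They were searched on both strands for GAGGAA and for AGGAAGT, both of which hold the GGAA core that PU.1 binds and which share the letters AGGAA, so that their matches can overlap. Matches are in capitals, written on the strand of the gene, where a match of the other strand appears as TTCCTC or ACTTCCT. The windows were chr1:120505025-120505274 (minus strand) for Marco, chr3:106167565-106167814 (minus strand) for Chil3 and chr2:14229164-14229413 (plus strand) for Mrc1.
Marco: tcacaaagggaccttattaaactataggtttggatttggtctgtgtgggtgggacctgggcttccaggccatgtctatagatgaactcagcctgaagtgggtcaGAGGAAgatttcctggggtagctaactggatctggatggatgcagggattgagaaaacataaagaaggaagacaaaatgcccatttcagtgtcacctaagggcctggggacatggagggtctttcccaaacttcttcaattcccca
Chil3: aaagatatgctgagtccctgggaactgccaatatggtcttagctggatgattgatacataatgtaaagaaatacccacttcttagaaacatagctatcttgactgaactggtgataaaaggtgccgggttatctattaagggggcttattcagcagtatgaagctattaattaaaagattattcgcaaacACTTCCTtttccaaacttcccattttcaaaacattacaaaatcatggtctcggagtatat
Mrc1: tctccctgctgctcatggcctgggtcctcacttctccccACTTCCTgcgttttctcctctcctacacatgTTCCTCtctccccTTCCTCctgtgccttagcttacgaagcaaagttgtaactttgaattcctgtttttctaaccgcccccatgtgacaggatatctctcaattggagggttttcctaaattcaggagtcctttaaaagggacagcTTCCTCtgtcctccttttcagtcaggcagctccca

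The promoter table held 7 of the 10 genes, and Atp6v0d2, Fabp4 and Lpl were not matched in it. GAGGAA stood in the window of 3 of the 7 (Marco, Mrc1 and Ctsk) and in 23.1% of all 27025 promoters of this length. AGGAAGT stood in 2 of the 7 (Chil3 and Mrc1) and in 7.8% of all promoters. AGGTCA, the element that PPAR receptors and their partner RXR bind in pairs, stood in 1 of the 7 (Plet1) and in 13.8% of all, and a pair of such elements with 1 base between them stood in 0 of the 7 and in 0.037% of all. These matches are of letters alone, and binding was not measured.

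The signals that maintain alveolar macrophages were examined as a further group, with 17 genes tested. Their median log2 fold change on PFOA over the genotypes was 0.13, and 0 of the 17 were altered. An unadjusted p under 0.05 was found for 3 of the 17 (8.27% of all genes), all with more RNA on PFOA (3.8%). They were Csf1r, the M-CSF receptor gene of all macrophages and monocytes (0.38 ± 0.12, edgeR adjusted p = 0.468), Spi1, which encodes PU.1 (0.58 ± 0.19, adjusted p = 0.468), and Csf2rb, the common beta chain of the GM-CSF receptor (0.33 ± 0.14, adjusted p = 0.553). Between KO and WT, 6 of the 17 had an unadjusted p under 0.05 (13.9% of all genes), 5 higher and 1 lower in KO. Of the 17, 0 were altered (2.9% of all genes). Spi1 was higher in KO by 0.69 ± 0.22 (edgeR adjusted p = 0.142). Cebpb, a transcription factor gene that alveolar macrophages need, was lower by -0.47 ± 0.13 (adjusted p = 0.0778).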

How the data were processed

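RNA of 17 mouse lungs was made into libraries from 6 ng of total RNA with the SMARTer Stranded Total RNA-Seq v2 Pico kit. The authors trimmed the reads, used STAR 2.6 within Partek Flow for alignment to mm10, and deposited estimated counts per gene from an expectation-maximization model, of which 30.1% were not whole. The annotation release and the use of strand in counting are not given in the sources used here, and the deposited gene coordinates matched those printed.

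Counts were rounded, and 26946 genes whose counts summed to 20 or more were fitted with edgeR 4.0.16 (glmQLFit and glmQLFTest, TMM factors, R 4.3.3), either with 1 coefficient per group or, for PFOA over the genotypes, with additive terms for genotype and exposure. Adjusted p-values are Benjamini-Hochberg values over all genes tested. DESeq2 1.42.0, other filters, factors, thresholds and covariates, and each library left out in turn were alternatives, and 4 further alternatives were chosen after the data were seen. Each library is from 1 mouse. With 3 mice against 3, an exact permutation test of a single gene cannot go below p = 0.1, and none was run. Counts for PFOA in WT were simulated with 26461 genes, of which 200 were changed 4-fold. The 200 were drawn from genes expected at 20 or more counts in the smallest library. Of these edgeR recovered 195 with 18 other calls, and DESeq2 196 with 23. Smaller changes, like those of the members, were not simulated, nor were libraries that stand apart. On counts with no gene changed (26465 genes), edgeR made 0 calls and DESeq2 5.

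The members and the 19 gene lists were chosen with earlier results of these data known. Named beside the members are, from each list, up to 3 genes of the smallest unadjusted p on PFOA over the genotypes and up to 3 over the genotype comparisons, the relatives Chil4, Fabp5 and Atp6v0d1, and the 3 genes of highest r with each member. Markers that check the label (Siglecf, Ear1, Ear2, Adipoq and Plin1) are given as ranges, and Fabp1 was named after its counts were seen.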

Additional observations from a re-analysis of the deposited data

How the results depend on the processing

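No paired analysis was possible because the animal numbers in the labels are not shared between groups. The counts here cover 38 log2 fold changes, which are a part of those fitted. Of 1238 alternative values of the 38, 1217 kept their direction and side of the threshold, 20 reversed and 1 became stronger. Other fitted values also reversed and are not in these counts. Krt79 in KO went from 0.32 to -0.15 without library 154, and Plet1 in KO from 0.11 to -0.05 without library 145. Chil3 in KO against WT went from -0.46 to 0.07 without library 107. An unadjusted p under 0.05 with no fold threshold was also used in place of the adjusted rule. The members called, 0 by the adjusted rule, were then 2 in WT (7.35% of all genes), 3 in KO (9.79%) and 2 in KI (2.59%). There were 5 over the genotypes (8.27%), 1 for KO against WT (13.9%), 2 for KI against WT (10.4%) and 1 for KI against KO (4.74%). With the second index as a covariate, the adjusted rule called 1 member (Fabp4) for KO against WT and 1 (Fabp4) for KI against WT. These fits called 193 and 449 of 26946 genes. Leaving out each library in turn gave 0 to 1 over the genotypes, where 1 (Chil3, log2 fold change 1.002, adjusted p = 0.193 by edgeR) came without KI PFOA library 139, where 35 of 26754 genes were called, and 0 to 0 in the other 8 comparisons. The cause of these changes was not tested.

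Among the 38, the values that reversed were small or rested on 1 library. In WT, leaving out each library in turn moved Marco from -0.33 to 0.64, Chil3 from -0.063 to 1.60, Mrc1 from -0.11 to 0.84 and Atp6v0d2 from -0.036 to 1.28, with each lowest value without vehicle library 122 and each highest without vehicle library 107. Marco was also at -0.06 without library 50 and at -0.10 in females only. Without libraries 122 and 137, the 4 WT values were -0.33, -0.064, -0.11 and -0.038, and without library 102 as well they were -0.33, -0.064, -0.11 and -0.037. In KI, Marco was at -0.0038 in females only and at -0.0034 without the 4 libraries rich in adipocyte genes. Fabp4 in KI ranged from -2.04 without library 57 to 0.28 without library 102, and was at 0.27 without libraries 122, 137 and 102 and at 0.087 with the adipocyte level as a covariate. Plet1 over the genotypes was at 0.0075 without libraries 122 and 137. The alternatives without several libraries and the adipocyte covariate were chosen after seeing the data. In WT, 2 vehicle mice limit every value, and where 1 of them is left out the lone vehicle library is assumed to vary like the other groups.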
